A study of Rattus norvegicus with 14 samples.

Results

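Superoxide and peroxide are removed in liver by a small set of abundant enzymes, and 10 of their transcripts are described here: Prdx1, Prdx2, Prdx3, Prdx5, Prdx6, Sod1, Sod2, Cat, Gpx1 and Gpx4. They were chosen by name, among probes whose platform annotation gave exactly 1 gene symbol, and the brightest probe of a gene was used. Earlier results of these data were known at that choice. All 10 were measured, out of 14506 genes tested. The tissue was whole liver of lean female Zucker rats, about 15 weeks old by the series title. Every rat was heterozygous (fa/+) for the fa allele of the leptin receptor gene, which makes homozygous rats obese. For 64 days 7 control rats ate a standard diet, while 7 rats ate that diet with rosemary extract at 0.05% by weight, 40% of it carnosic acid, a phenolic diterpene. The series title gives 0.5% for the extract, so the dose is printed as the sample labels have it. Each rat gave 1 array, so the 7 values of a group are 7 animals. The question was whether the daily extract altered the transcripts of these enzymes, and how large a change the data leave room for.

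Superoxide dismutases turn superoxide into hydrogen peroxide and oxygen. Hydrogen peroxide is then taken up by catalase in peroxisomes, by glutathione peroxidases, which spend glutathione, and by peroxiredoxins, most of which spend thioredoxin. The oxidised partners are restored by glutathione reductase and thioredoxin reductase with NADPH, and sulfiredoxin repairs peroxiredoxins that were oxidised too far. Carnosic acid is known as an activator of NRF2, a transcription factor that switches on many genes of the glutathione and thioredoxin systems through a DNA element named the antioxidant response element.

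Values are log2 RMA values, so a difference of 1 is a factor of 2. The 14 arrays correlated between 0.984 and 0.997 with each other across genes, and their number limits the precision. Hepatocyte markers were bright on every array (mean of 8 markers 12.85 to 13.04 over both groups), and limma called 0 of 8 (0 at an unadjusted p under 0.05). The largest axis of variation between rats of the same group held 30.9% of the within-group variance. Control rat 1 (score 2.27) and extract rat 4 (1.49) lay at one end of it and extract rat 7 (-1.36) at the other, while the group means were close (-0.03 in control and 0.03 in extract rats). Control rat 1 and extract rat 4 also had the lowest array weights (0.41 and 0.46).

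None of the 10 enzymes passed the test. Because earlier results were known when the 10 were chosen, their counts and joint intervals describe these 10 only. In limma's moderated test with Benjamini-Hochberg adjustment over all genes, 0 of 10 had an adjusted p under 0.05, where 3.15% of all genes tested did, and 1 of 10 (Sod2) had an unadjusted p under 0.05, where 14.8% of all genes did. The unequal-variance test per gene also called 0 of 10. In none of the 10 were the groups free of overlap, against 1.54% of all genes. The sign was positive in 6 (Prdx1, Prdx3, Prdx5, Prdx6, Sod2, Cat) and negative in 4 (Prdx2, Sod1, Gpx1, Gpx4), and it was positive in 49.7% of all genes. The median log2 fold was 0.11, against -0.000880 over all genes tested, and the median size without sign was 0.12, against 0.079 over all genes. The plot of values by rat shows both groups of each enzyme.

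**Figure D1:**
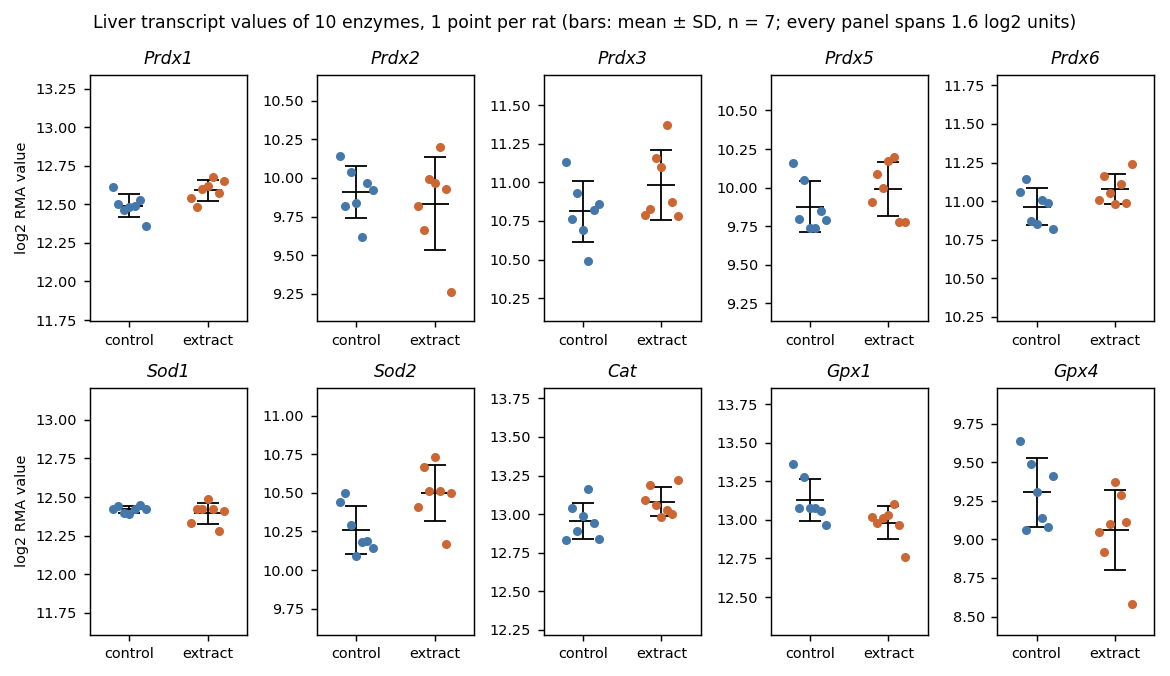
Log2 RMA values of the 10 enzymes in 7 control and 7 extract rats, 1 panel per enzyme, with each panel spanning the same range of log2 units. Points are rats, bars are mean ± SD; the groups overlap in all 10 panels, and extract rat 7 is the lowest point for Prdx2, Gpx1 and Gpx4.

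The intervals bound the size of any change. Every 95% interval lay within 0.5 of 0 on the log2 scale, that is between 0.707-fold and 1.41-fold, as did the intervals of 91.0% of all genes tested. The highest upper limit was that of Sod2 (1.34-fold) and the lowest lower limit that of Gpx4 (0.712-fold). In 6 of 10 enzymes (Prdx1, Prdx5, Prdx6, Sod1, Cat and Gpx1) the 95% interval excluded a change of 1.25-fold in either direction. With each interval widened to 99.5%, so that the 10 hold together at 95%, the limits ran from 0.651-fold (Gpx4) to 1.44-fold (Sod2). These wider intervals all included 0, and 9 of 10 excluded a change of 1.5-fold in either direction, Gpx4 being the exception. A fold of 1.15 (Sod1) to 1.36 (Prdx2) would have reached the largest unadjusted p that was called over all genes. The lower limit of Gpx4 passed -0.5 in several alternatives, to -0.54 without extract rat 4. Gpx1 and Cat were among the brightest probes of the array, with 0.205% and 0.233% of probes above them, and whether such bright signals compress a fold was not tested.

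**Figure D2:**
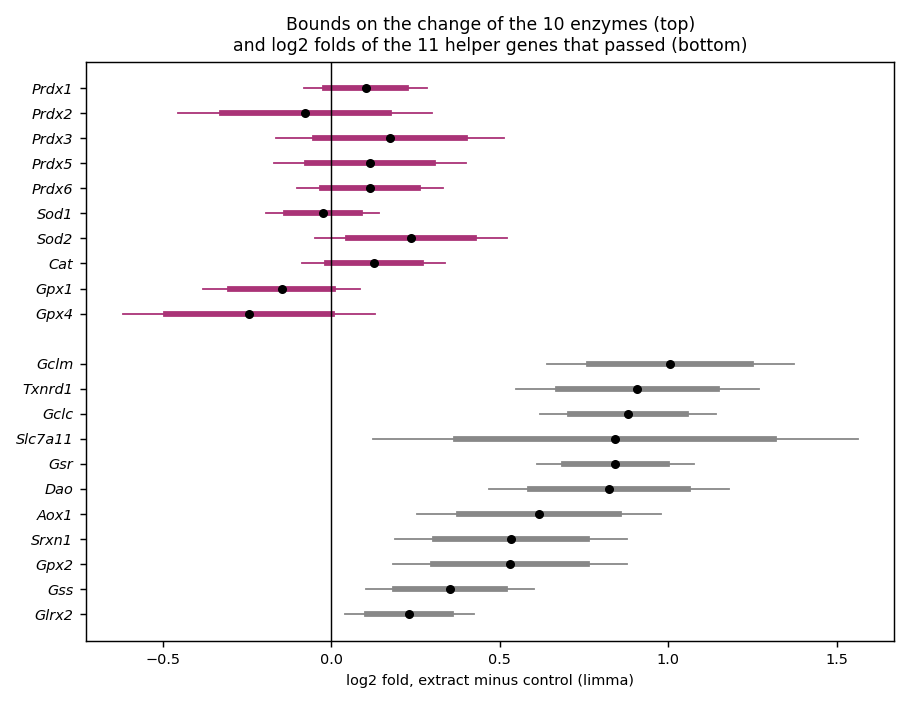
Log2 fold (extract minus control, limma) of the 10 enzymes above and of the 11 helper genes that passed below. Thick lines are 95% intervals and thin lines 99.5% intervals; the thin lines of all 10 enzymes cross 0, and the thick line of Sod2 lies above 0, from 0.05 to 0.42.

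Sod1 encodes the copper and zinc superoxide dismutase of the cytosol, and its log2 fold had the smallest standard error of the set. Control rats ranged from 12.39 to 12.45 (median 12.42) and extract rats from 12.28 to 12.49 (median 12.42). The extract rats spread to both sides of the narrow control range. Sod1 thus had a log2 fold of -0.02 ± 0.05 (SE), and the 95% interval reached from 0.910-fold to 1.06-fold.

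Sod2 encodes the manganese superoxide dismutase of the mitochondrial matrix. Its control rats ranged from 10.09 to 10.50 (median 10.19) and its extract rats from 10.17 to 10.73 (median 10.51). Of the 7 extract rats, 4 lay above all controls, while extract rat 6 (10.17) sat among the lowest controls. The log2 fold was 0.24 ± 0.09 (SE), or 1.18-fold, with a 95% interval of 0.05 to 0.42, an unadjusted p of 0.016 and an adjusted p of 0.20 in limma. Its adjusted p was under 0.05 in none of 24 alternative settings, the lowest being 0.070 without extract rat 6. The 95% interval, not widened for 10 enzymes, stayed above 0 in all 24, with a lowest limit of 0.01 without extract rat 4.

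Cat encodes catalase, the heme enzyme of peroxisomes. Control rats ranged from 12.83 to 13.16 (median 12.94) and extract rats from 12.98 to 13.22 (median 13.06). Extract rats 2 and 7 lay above all controls, and the other 5 lay within the control range. Catalase had a log2 fold of 0.13 ± 0.07 (SE, limma adjusted p = 0.40), with limits of 0.991-fold and 1.20-fold. None of 12 measured genes of peroxisome biogenesis passed in limma (1 at an unadjusted p under 0.05; median log2 fold 0.02). The smallest p of that list was that of Pex7, the import receptor for a class of matrix proteins (log2 fold 0.23, adjusted p = 0.15).

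Prdx1 encodes a cytosolic peroxiredoxin that uses thioredoxin. Control rats ranged from 12.36 to 12.61 (median 12.49) and extract rats from 12.48 to 12.68 (median 12.60), with extract rats 4, 5 and 7 above all controls. Prdx1 had a log2 fold of 0.10 ± 0.06 (SE, limma adjusted p = 0.43), bounded by 0.988-fold and 1.17-fold. Prdx1 was the 1 enzyme of the 10 with a second probe, which had a log2 fold of 0.12 (95% interval 0.00 to 0.24, lower limit -0.00286). Both probes moved together between rats of a group (r = 0.962 over 14 arrays).

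Prdx2, a cytosolic enzyme that is plentiful in red blood cells, had the largest SD of the 10 among extract rats (0.30). Control rats ranged from 9.62 to 10.14 (median 9.92) and extract rats from 9.26 to 10.20 (median 9.93), so the extract range enclosed the control range. The log2 fold was -0.08 ± 0.12 (SE), with limits of 0.799-fold and 1.13-fold. The sign rested on extract rat 7 (9.26), without which the log2 fold was 0.02 (limma adjusted p = 0.96).

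Prdx3 encodes the peroxiredoxin of mitochondria. Control rats ranged from 10.49 to 11.13 (median 10.82) and extract rats from 10.78 to 11.37 (median 10.87). Extract rats 3 and 5 lay above all controls and the remaining 5 within their range. The log2 fold was 0.17 ± 0.11 (SE, limma adjusted p = 0.49), with limits of 0.967-fold and 1.32-fold, and without extract rat 5 it was 0.11. Prdx5, found in several compartments, ranged from 9.74 to 10.16 in control and from 9.78 to 10.20 in extract rats (medians 9.80 and just above 10). Its log2 fold was 0.12 ± 0.09 (SE), with limits of 0.952-fold and 1.23-fold. Prdx6, which draws on glutathione in place of thioredoxin, ranged from 10.82 to 11.14 in control and from 10.98 to 11.24 in extract rats (medians 10.99 and 11.05). Its log2 fold was 0.11 ± 0.07 (SE), with limits of 0.982-fold and 1.19-fold.

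Gpx1 and Gpx4 are glutathione peroxidases with selenocysteine at the active site, Gpx1 for hydrogen peroxide in cytosol and mitochondria and Gpx4 for lipid peroxides in membranes. Gpx1 ranged from 12.97 to 13.36 in control rats (median 13.08) and from 12.76 to 13.10 in extract rats (median 13.01). Control rats 1 and 3 stood highest and extract rat 7 lowest. The log2 fold was -0.15 ± 0.07 (SE, limma adjusted p = 0.36), with limits of 0.812-fold and just above 1-fold. Gpx4 ranged from 9.06 to 9.64 in control rats (median 9.31) and from 8.58 to 9.37 in extract rats (median 9.10), with extract rats 1, 2 and 7 below all controls. For Gpx4 the log2 fold was -0.24 ± 0.12 (SE, limma adjusted p = 0.34), with limits of 0.712-fold and just above 1-fold. With the within-group axis as a covariate, an alternative chosen after seeing the data, its log2 fold was -0.26 with a limma adjusted p of 0.038, and Gpx4 was then the 1 enzyme of 10 called.

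Markers of some other cell types differed between the groups. The marker lists were chosen with earlier results of these data known, so their counts are a description. Red cells also hold catalase and the enzymes of Prdx2 and Gpx1, and 5 of 8 red cell markers were measured. None of the 5 passed in limma (0 at an unadjusted p under 0.05), and their mean ranged from 6.40 to 6.78 in control and from 6.08 to 6.82 in extract rats. The brightest, the globin gene Hbb, had a log2 fold of -0.29 (limma adjusted p = 0.34). The other measured red cell markers had log2 folds of -0.20 (Ahsp), -0.16 (Alas2), -0.01 (Slc4a1) and 0.05 (Epb42). Of 11 macrophage and Kupffer cell markers all had a negative sign, 10 had an unadjusted p under 0.05 (14.8% of all genes did) and 2 fell, where 1.15% of all genes fell. These were Marco (log2 fold -0.73, limma adjusted p = 0.0059) and Vsig4 (-0.51, limma adjusted p = 0.024). The mean of all 11 markers ranged from 8.78 to 9.01 in control rats and from 8.36 to 8.74 in extract rats, without overlap. Of 7 stellate cell markers 1 fell (Pdgfrb, -0.37; 2 at an unadjusted p under 0.05), and 0 of 5 endothelial, 0 of 4 bile duct and 0 of 5 lymphocyte markers passed in limma (2, 1 and 0 at an unadjusted p under 0.05). A uniform sign was not particular to macrophages. The sign was negative in 5 of 5 endothelial, 7 of 8 hepatocyte, 5 of 7 stellate cell and 4 of 5 lymphocyte markers, and positive in 4 of 4 bile duct markers. The part of these cell types in the values of the 10 enzymes and of the helper genes was not tested. In whole tissue, fewer cells of a type and less RNA per cell cannot be told apart.

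Beside the enzymes stand helper genes that supply, recycle and load them or produce their substrates. Of 77 such genes in 6 lists 70 were measured, of which 11 (15.7%) rose and 0 fell, where 2.00% of all genes tested rose and 1.15% fell. The median log2 fold of the 70 was 0.07, so the rises were carried by a part of the list. The helper lists were chosen with earlier results of these data known, so these shares are a description, with no test. The glutathione supply list had the highest median (0.60), with 5 of 8 genes rising. Gclc and Gclm form the enzyme that limits glutathione synthesis. Gclc ranged from 9.94 to 10.29 in control rats and from 10.76 to 11.28 in extract rats (log2 fold 0.88 ± 0.08 SE, limma adjusted p = 3.12e-06). Gclm ranged from 9.69 to 10.61 in control rats and from 10.80 to 11.16 in extract rats (log2 fold 1.01 ± 0.11 SE, limma adjusted p = 3.47e-05). In both genes all 7 extract rats lay above all controls.

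Gsr, the reductase that regenerates glutathione for Gpx1 and Gpx4, ranged from 9.54 to 9.88 in control rats and from 10.30 to 10.64 in extract rats. Its log2 fold was 0.84 ± 0.07 (SE, limma adjusted p = 1.42e-06). Gss, the synthetase of the last step, rose by 0.35 on the log2 scale, with 5 of 7 extract rats above all controls. Slc7a11, the cystine importer, had a log2 fold of 0.84 (adjusted p = 0.048) with values from 3.80 to 5.47 in extract rats against 3.57 to 3.84 in control rats. Both Slc7a11 means (3.64 and 4.48) lay below 5.10, the median of all probes, and its call was lost in 16 of 23 alternatives.

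Among 13 measured genes of thioredoxin and glutaredoxin recycling 3 rose and 10 did not pass (median log2 fold 0.11). Txnrd1, the cytosolic thioredoxin reductase, ranged from 7.37 to 7.94 in control and from 8.38 to 9.03 in extract rats, without overlap (log2 fold 0.91 ± 0.11 SE, limma adjusted p = 0.000105). Extract rats 1 and 2 stood highest. Srxn1, the sulfiredoxin that repairs Prdx1 and its relatives, ranged from 4.98 to 5.50 in control and from 5.44 to 5.96 in extract rats, with 6 of 7 above all controls (log2 fold 0.53 ± 0.11 SE, limma adjusted p = 0.00861). Its control mean (5.25) lay close to the median of all probes, and RMA values near background tend to understate a fold. Glrx2, a mitochondrial glutaredoxin, had a log2 fold of 0.23 (limma adjusted p = 0.041), a call lost in 14 of 24 alternatives.

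Of 8 further peroxide and superoxide enzymes 1 rose and 7 did not pass (median log2 fold -0.09). This was Gpx2, a glutathione peroxidase best known from the gut, which went from 4.61 ± 0.16 to 5.14 ± 0.27 (SD, n = 7 each; log2 fold 0.53, limma adjusted p = 0.0094). The control mean lay below the median of all probes (5.10) and the extract mean close to it, so the control signal was not shown to be above background and the fold may be understated. For Gpx2 4 of 7 extract rats exceeded all controls, and the call was lost in the unequal-variance test (adjusted p = 0.061). Of 17 enzymes and subunits that produce peroxide or superoxide, 7 had an unadjusted p under 0.05 in limma (14.8% of all genes did). Of the 17, 2 rose and 15 did not pass (median log2 fold 0.01). These were Dao, the peroxisomal D-amino acid oxidase (8.26 ± 0.24 to 9.09 ± 0.21, SD, n = 7 each; log2 fold 0.83), and the aldehyde oxidase Aox1 (11.07 ± 0.29 to 11.68 ± 0.15, SD, n = 7 each; log2 fold 0.62). All 7 extract rats lay above all controls for Dao, and 6 of 7 for Aox1. In selenoprotein and metal loading limma called 0 of 12 genes (5 at an unadjusted p under 0.05; median log2 fold 0.11). The smallest p there was that of Atox1, a copper chaperone (log2 fold -0.60, adjusted p = 0.059; under 0.05 in 8 of 24 alternatives).

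Each enzyme was also set beside its recycling partner within each rat, as the partner's log2 value minus that of the enzyme. The partners were known to have risen when they were chosen, so the shifts between groups are a description, with no test. The level of such a difference has no meaning across probes. The difference of Gsr and Gpx1 lay between -3.66 and -3.26 in control rats and between -2.66 and -2.27 in extract rats, a shift of 0.99 without overlap. That of Txnrd1 and Prdx1 lay between -5.24 and -4.56 and between -4.28 and -3.46, a shift of 0.81, again without overlap. That of Srxn1 and Prdx1 shifted by 0.43 with overlapping groups (control rats -7.54 to -6.87, extract rats -7.13 to -6.58).

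**Figure D3:**
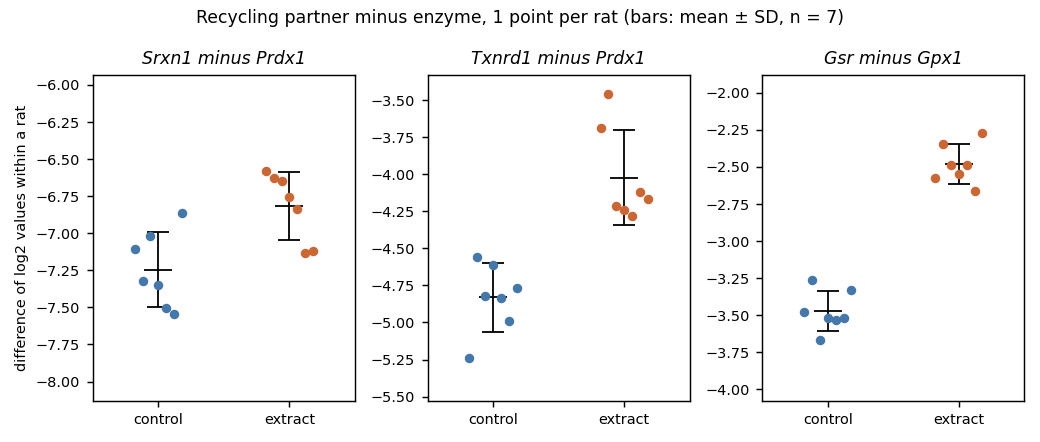
Difference of log2 values, partner minus enzyme, in each of 14 rats (points), with mean ± SD of 7 rats per group as bars. Control and extract rats are apart for Gsr minus Gpx1 and for Txnrd1 minus Prdx1, and overlap for Srxn1 minus Prdx1.

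The core letters of the antioxidant response element, TGACNNNGC on either strand, were looked for in the 250 bases before each RefSeq gene start (build GRCr8), since the helper genes that rose and the enzymes can be set side by side there. Of all 33469 such windows 10.1% held a match. That is a share of windows, while the counts below are of genes, some of which had several windows. Bases outside these windows were not searched. Windows were found for 9 of the 10 enzymes, and 2 of these 9 (Prdx1 and Sod2) held a match. Of 10 helper genes that rose and had a window, 4 held a match (Gpx2, Txnrd1, Gclm and Dao) and Srxn1, Glrx2, Gclc, Gss, Slc7a11 and Aox1 held none. The matches are shown 5′ to 3′ on the strand of the gene, with the matching letters in capitals. A match on the opposite strand reads GCNNNGTCA.
Prdx1: cagggaaagcGCTGAGTCAtaccccgccg
Sod2: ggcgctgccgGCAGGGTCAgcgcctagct
Gpx2: acctggtttcGCTAAGTCAttct
Txnrd1: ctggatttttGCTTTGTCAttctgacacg
Gclm: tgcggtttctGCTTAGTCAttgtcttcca
Dao: ccgaagacttTGACCTGGCgttccagtcc
The Prdx1 stretch lies at chr5:135383761-135383789 on the plus strand, its match beginning 135 bases before the gene start. The Sod2 stretch lies at chr1:50050185-50050213 on the minus strand, 35 bases before the start. The others lie at chr6:101230034-101230056 (Gpx2, minus), chr7:22755964-22755992 (Txnrd1, minus, 1 of 2 listed starts), chr2:213031953-213031981 (Gclm, plus) and chr12:48273326-48273354 (Dao, minus). These are matches of letters, and no binding was measured.

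Between rats of the same group the 10 enzymes did not vary independently. Over their 45 pairs the median Pearson's r of group-centred values was 0.31 across 14 rats, and 15 pairs had an adjusted p under 0.05 in a permutation test (100000 permutations within groups, adjusted over the 45). The same share was not computed for pairs of other genes, so whether it is particular to these enzymes was not tested. Prdx2, Prdx3, Prdx5, Gpx1 and Gpx4 formed a block in which every r lay between 0.65 and 0.84. For each pair, r was also taken without the 2 rats farthest from the median of 1 gene, the earlier in the opening list. Extremes of the other gene could stay in. Without these 2 rats, the r of the 10 pairs of the block ranged from 0.40 (Prdx3 and Gpx1) to 0.88 (Prdx2 and Prdx3). The block's highest pair was Prdx2 and Gpx4 (r = 0.84, permutation adjusted p = 0.0055; Spearman's rho = 0.83, permutation adjusted p = 0.0054; r = 0.72 without the 2 rats farthest out). Cat had a negative r with all 5 genes of the block, of which 3 passed. The largest in size was that with Gpx4 (r = -0.81, permutation adjusted p = 0.0054; rho = -0.86, permutation adjusted p = 0.0054; r = -0.80 without the 2 farthest). Cat and Prdx2 gave r = -0.81 (permutation adjusted p = 0.0054) and rho = -0.81 (permutation adjusted p = 0.0056), with r = -0.70 without the 2 farthest. Cat and Prdx3 gave r = -0.74 (permutation adjusted p = 0.017; rho = -0.76, permutation adjusted p = 0.017; r = -0.77 without the 2 farthest). Cat with Gpx1 (r = -0.49, permutation adjusted p = 0.22) and with Prdx5 (r = -0.50, permutation adjusted p = 0.19) did not pass. Sod1 and Sod2 gave r = 0.74 (permutation adjusted p = 0.018; rho = 0.66, permutation adjusted p = 0.047), and r was 0.43 without the 2 farthest.

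**Figure D4:**
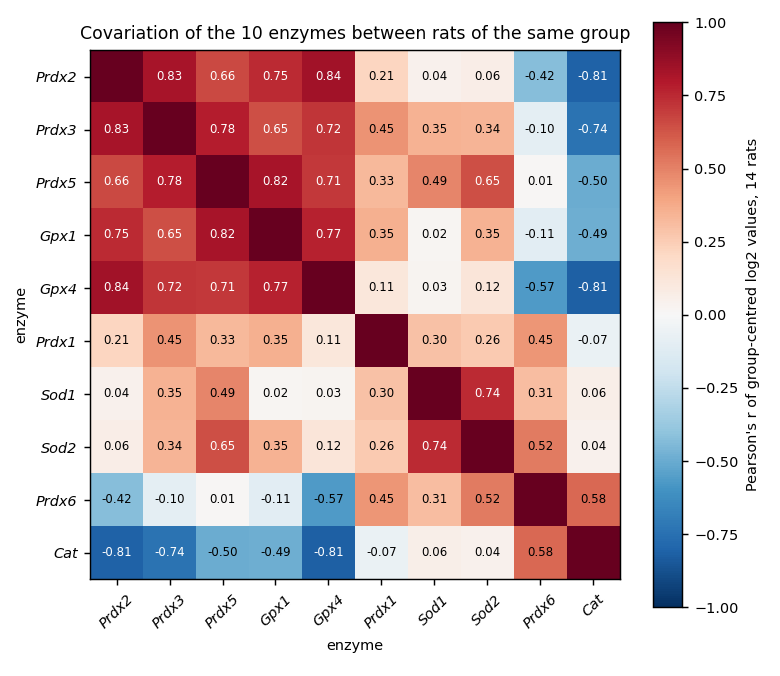
Pearson's r of group-centred log2 values for each pair of the 10 enzymes over 14 rats, with red for positive and blue for negative r. Prdx2, Prdx3, Prdx5, Gpx1 and Gpx4 form a red block (r of 0.65 to 0.84), and the r of Cat with each of the 5 is negative, from -0.81 to -0.49.

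The arrays share more than these enzymes, and the block followed the axis that all other genes define. Gpx4 (r = 0.86), Gpx1 (0.82), Prdx5 (0.78), Prdx2 (0.76) and Prdx3 (0.75) ran with its score over the 14 arrays and Cat against it (-0.72), while r was lower in size for Prdx1 (0.50), Sod2 (0.31), Prdx6 (-0.22) and Sod1 (0.17). These are descriptions across arrays that share each array's own quality and normalization, and what sets the axis was not tested. The genes most like the members of the block, by r of group-centred values over 14 arrays and out of all genes tested, were Hsbp1 for Prdx2 (r = 0.971), Mrpl21 for Prdx3 (0.972), Bag2 for Prdx5 (0.935), Mrpl36 for Gpx1 (0.956) and Tomm7 for Gpx4 (0.966). As many as 48 genes followed Prdx2 with r over 0.9, 46 Prdx3 and 34 Gpx4. Those most like the others were Pik3r1 for Cat (0.938), Ift43 for Sod1 (0.896), Nectin3 for Prdx6 (0.890), Lancl1 for Sod2 (0.883) and Ms4a14 for Prdx1 (0.829). Each most-like gene was picked for the highest r of all genes tested, which raises r, and the r expected by chance was not computed. Without the 2 rats farthest from the enzyme's median, r was 0.77 for Sod1 (rho = 0.72 over all 14 arrays) and 0.77 for Sod2. For the remaining enzymes it ranged from 0.87 (Prdx1) to 0.97 (Prdx2). No gene had r over 0.9 with Prdx1, Prdx6, Sod1 or Sod2.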

How the data were processed

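Total liver RNA of 14 rats was run on Affymetrix whole-transcript arrays, each rat on its own array, per the labels' protocols. The authors deposited log2 expression values for 29215 probes, made with RMA in Affymetrix Expression Console 1.1.2, per the submitters' processing notes. RMA corrects background, quantile-normalizes arrays and summarises probes; its options and the genome build are not given in the sources used here. The log2 scale was read from the values (1.95 to 14.0).

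Platform annotation gave 15310 probes exactly 1 symbol and 323 several. Symbols were checked by Entrez identifier against RefSeq GRCr8 (15279 found, 0 changed), and the brightest probe per gene was kept. All 14506 genes were fitted with limma 3.58.1 in R 4.3.3, without covariates or a filter, and p-values were Benjamini-Hochberg adjusted (threshold 0.05). A log2 fold is the extract mean minus the control mean. The fit and its intervals were tested on simulated data with independent normal noise in each gene. The variation that genes of the real arrays share was not simulated, so the intervals were not tested under it.

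The 10 enzymes and the helper and marker lists were chosen with earlier results of these data known. Named genes are the 10 enzymes, each helper gene that passed (or the smallest p of its list), 3 recycling partners and the gene most like each enzyme. A planned permutation test of partner minus enzyme was run but is not quoted, because the partners were known to have risen. Marco, Vsig4, Pdgfrb and Hbb were named after their values were seen. Unmatched symbols were not analysed here. Alternatives were other normalizations, filters, variance models, blocks and left-out arrays. Python 3.11.15, pandas 2.3.3 and matplotlib 3.10.9 made tables and plots.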

Additional observations from a re-analysis of the deposited data

Results flagged for a closer look

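Within each group of 7 rats, the gap between the most extreme rat and its neighbour, as a share of the group's range, was set against Dixon's critical value of 0.568. Of 48 groups examined (enzymes, helper genes that passed and partner differences) 3 exceeded it, and chance flags about 1 in 20. Extract rat 7 was low for Gpx1 (12.76, the next rat 12.97; gap 0.60 of the range). Without it the log2 fold of Gpx1 was -0.11, with a limma adjusted p of 0.54. Control rat 1 was high for Gpx2 (4.95, the next rat 4.65; gap 0.62) and for Gclm (10.61, the next rat 10.08; gap 0.59).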

How the results depend on the processing

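The count of enzymes called was 0 in 24 of 25 alternatives and 1 (Gpx4, log2 fold -0.26, limma adjusted p = 0.038) with the within-group axis as a covariate. That covariate was chosen after seeing the data and estimated from the same arrays, and the cause of the change was not tested. The sign of Prdx2 reversed without extract rat 7 (log2 folds without 1 rat each from -0.14 to 0.019). The other 9 enzymes kept their sign in each of 24 refits. Over these refits the lowest lower limit was -0.54 (Gpx4, without extract rat 4) and the highest upper limit 0.47 (Sod2, without extract rat 6), on the log2 scale. Helper genes called ranged from 9 to 15, and 8 of the 11 kept their call in every alternative that tested them. Slc7a11 lost it without each rat except extract rats 4, 6 and 7 (adjusted p 0.051 to 0.093) and in 5 other settings. Glrx2 lost it without each rat except control rat 1 and extract rats 6 and 7 (0.058 to 0.092) and in 3 other settings. Gpx2 lost it in the unequal-variance test. The 3 partner shifts kept their sign in all 48 recomputed values, but the partners were known to have risen when chosen, so this is no test. Calls over all genes numbered 457, but 694 with array weights, 227 in the unequal-variance test, 719 at an adjusted p of 0.1 and 967 with the axis covariate. Correlation between same-numbered control and extract rats ran from -0.46 to 0.28 (over 0.1 in 4 of 7 pairs). Of 7 control rats, 2 were most like the extract rat of their own number, and rat numbers were not used as pairs in the main fit. With the replicate block the counts were 0 enzymes and 9 helper genes.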
